A study of Mus musculus with 24 samples.

Results

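The genes described here encode the insulin-like growth factors (IGFs), their receptors and proteins that bind them, in the VB and the dLGN of newborn mice. They were the ligand genes Igf1 and Igf2, the receptor genes Igf1r and Igf2r, the binding protein genes Igfbp2, Igfbp3, Igfbp4 and Igfbp5, and the genes Igfbp7 and Igfbpl1, which encode secreted proteins related to the binding proteins. Members were taken by their annotated gene symbol. They made up 10 of the 18193 genes and 29 of the 34945 probe sets with 1 gene symbol, and 1 further probe set, annotated to both Igf2r and Airn, was left out. Where a gene had several probe sets, its main one was that of highest mean signal over the 24 arrays, and its values are given unless another is named.

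IGF1 and IGF2 are secreted peptides that act mainly through the IGF1 receptor, a tyrosine kinase that signals through the insulin receptor substrates and AKT to promote growth and survival of neurons and glia. The IGF2 receptor takes IGF2 into the cell for degradation and also carries lysosomal enzymes. The binding proteins hold the ligands outside the cell, where proteases such as pregnancy-associated plasma protein A release them again.

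The VB, the ventrobasal complex, relays touch from the body and whiskers to the somatosensory cortex, and the dLGN, the dorsal lateral geniculate nucleus, relays vision. Wild-type mice on a C57BL/6 background were embBE, with both eyes cauterized in utero, or non-enucleated controls, and each nucleus was microdissected at P4 or P0 and pooled over pups of 1 litter and condition. There were 24 arrays, 3 in each group except in the dLGN at P0, which had 4 of embBE mice and 2 of controls. Arrays carry a pair of numbers in the labels (such as 35_1), which the sources used here do not explain, and p-values measure the spread between these pools. The values are RMA-normalized log2 signals, so that 1 unit is a doubling. A signal depends on its probes and was compared only between arrays, never between genes.

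Of 10 markers of thalamic relay neurons, all measured, the vesicular glutamate transporter gene Slc17a6 ran from 11.09 to 13.32 over the arrays, the transcription factor gene Tcf7l2 from 11.77 to 12.80, Gbx2 from 4.57 to 9.05 and Lhx2 from 3.26 to 6.99. The mean signal of the 10 ran from 9.45 to 10.44 over the arrays. Gad1, which marks GABAergic neurons, had a mean of 6.68 and a highest value of 9.97. The mean signal of 11 GABAergic markers ran from 5.35 to 7.07 in the control VB at P0, against 5.34 to 5.56 in the embBE VB. In the control dLGN at P0 it ran from 5.91 to 6.77. These markers thus varied within the control VB at P0, and their part in its comparisons was not tested. Rorb was higher and Lhx2 lower in the VB in all 4 comparisons with the dLGN (limma, adjusted p of 0.0199 or less), both transcription factor genes of the thalamus. The log2 gap by which the 3′ actin probe set exceeded the 5′ one, which widens where RNA is degraded or incompletely copied, averaged 2.51 in the VB (range 1.95 to 4.29) and 3.61 in the dLGN (2.21 to 4.27), so it moved with the nucleus. The widest gaps of the VB were on control arrays 35_1 at P0 (4.29) and 36_3 at P4 (3.14). In bulk tissue, fewer cells of a type and less RNA per cell cannot be told apart.

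The ranges of the 10 genes were very unequal. The group means of Igf1 spanned 4.72 log2 units, more than those of 99.99% of the genes measured, and those of Igfbp2 (3.21), Igfbp3 (2.71) and Igfbp5 (2.24) spanned more than those of at least 99.3%. The median gene spanned 0.45. The group means of Igfbp4 spanned 0.31, less than the median gene. The plot of all 10 genes by array shows that the large ranges followed nucleus and age.

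**Figure D1:**
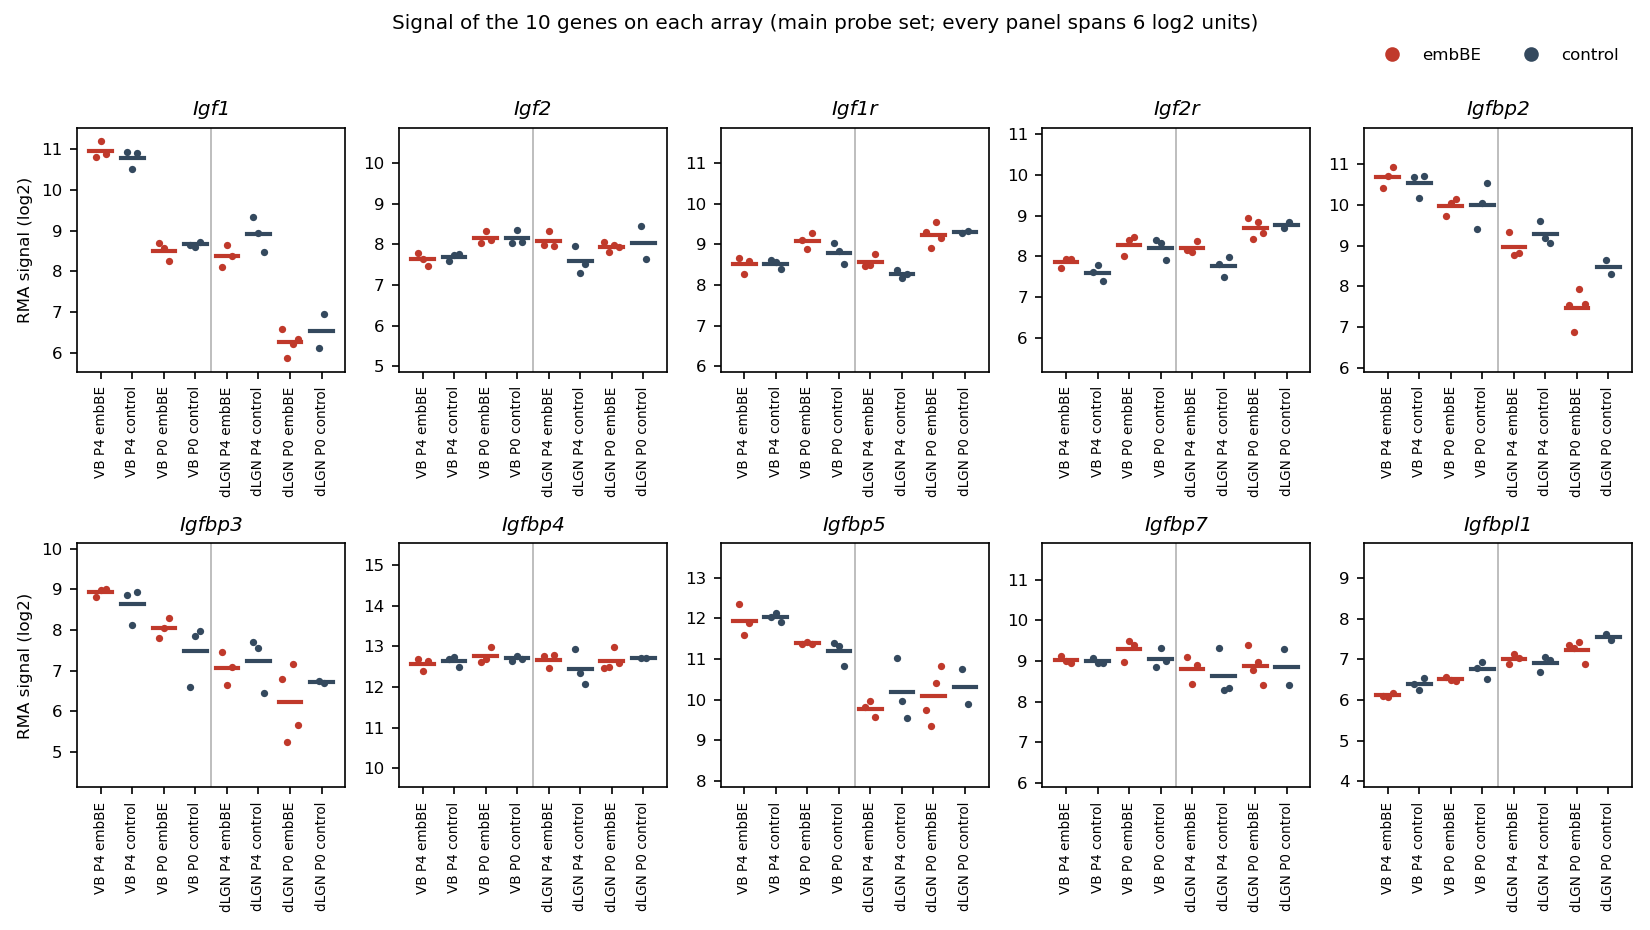
RMA log2 signal (vertical axis) of the main probe set of each gene on each of the 24 arrays, by group (horizontal axis). Points are arrays, horizontal bars are group means, red is embBE and dark grey is control, and a vertical line separates VB from dLGN. Igf1 is highest on the 6 VB arrays at P4 and lowest on the 6 dLGN arrays at P0, and the group means of Igfbp4 span 0.31.

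Igf1 was higher in the VB than in the dLGN in each of the 4 comparisons, and higher at P4 than at P0 in each of the 4 comparisons. Its log2 signal was 10.82, 11.19 and 10.88 in the embBE VB at P4, against 8.11, 8.65 and 8.36 in the embBE dLGN at P4. In controls at P4 it was 10.93, 10.52 and 10.91 in the VB, against 9.32, 8.94 and 8.47 in the dLGN. Every VB array at P4 thus lay above every dLGN array of that age.

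At P0 the embBE VB arrays had 8.69, 8.58 and 8.24, against 6.58, 5.86, 6.22 and 6.34 on the embBE dLGN arrays. The control VB arrays at P0 had 8.65, 8.60 and 8.73, against 6.12 and 6.94 on the control dLGN arrays. The groups fell into 3 levels. Both VB groups at P4 (means of 10.97 and 10.78) overlapped with each other and lay above all others. Next came the control dLGN at P4 (8.91), the control VB at P0 (8.66), the embBE VB at P0 (8.51) and the embBE dLGN at P4 (8.37), in which neighbours overlapped, and last the control (6.53) and embBE (6.25) dLGN at P0. The dLGN at P4 thus overlapped with the VB at P0.

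The VB minus dLGN difference of Igf1 was 2.59 log2 units in embBE mice at P4 (SE 0.23, 6.03-fold, adjusted p = 8.65e-07), 1.87 in controls at P4 (SE 0.23, 3.66-fold, adjusted p = 4.19e-05), 2.25 in embBE mice at P0 (SE 0.21, 4.77-fold, adjusted p = 1.71e-06) and 2.13 in controls at P0 (SE 0.26, 4.38-fold, adjusted p = 9.04e-05). These p-values come from limma and were adjusted over all genes by the Benjamini-Hochberg method, as were all adjusted p-values given for main probe sets. From P0 to P4 Igf1 rose by 2.46 in the embBE VB (SE 0.15, 5.50-fold, adjusted p = 1.61e-05) and by 2.12 in the control VB (SE 0.15, 4.36-fold, adjusted p = 4.62e-05). In the dLGN it rose by 2.12 in embBE mice (SE 0.25, 4.36-fold, adjusted p = 0.00275) and by 2.38 in controls (SE 0.30, 5.21-fold, adjusted p = 0.00904). The change with age in controls in the VB minus that in the dLGN was −0.26 (SE 0.34) and did not pass (adjusted p = 0.85). The rise in the control dLGN rests on 2 arrays at P0 and did not pass without array 35_1 (1.97 to 2.79 over all arrays left out).

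All 4 probe sets of Igf1 had differences above 0 in each of these 8 comparisons. Adjusted over all probe sets, 4 of the 4 passed for the VB over the dLGN in embBE mice at P4 (1.07 to 2.82) and 3 of the 4 in the other VB and dLGN comparisons. One probe set gave the smallest difference in each of the 8, among them 0.24 for the VB over the dLGN in embBE mice at P0 and 0.34 for P4 over P0 in the embBE dLGN, neither past the threshold. A different probe set scattered more in the embBE VB at P4, with 8.81, 11.10 and 9.60, against 10.84, 10.19 and 10.70 in the control VB.

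Igfbp2, Igfbp3 and Igfbp5 were higher in the VB as well, Igfbp2 in all 4 comparisons, Igfbp5 in 3 and Igfbp3 in 2. The windows around the starts of these genes are shown because they and Igf1 are the members that were higher in the VB. Each window runs from upstream of a RefSeq start into the gene, over 300 bases of the mouse build GRCm38.p6, read along the gene's strand, and capitals mark matches, on either strand, to AGGTCA (which nuclear receptors bind), the CCAAT box, the GC box core GGGCGG or the TATA box TATAAA. Windows were matched for 9 of the 10 genes.

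Igf1 (chr10:87860861-87861160, + strand): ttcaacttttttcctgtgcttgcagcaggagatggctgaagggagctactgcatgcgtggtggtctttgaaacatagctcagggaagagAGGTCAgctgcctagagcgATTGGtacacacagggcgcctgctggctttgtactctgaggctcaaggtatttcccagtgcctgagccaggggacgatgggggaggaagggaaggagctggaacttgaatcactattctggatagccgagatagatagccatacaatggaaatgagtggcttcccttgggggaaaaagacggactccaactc
Igfbp2 (chr1:72824230-72824529, + strand, the first of 2 starts): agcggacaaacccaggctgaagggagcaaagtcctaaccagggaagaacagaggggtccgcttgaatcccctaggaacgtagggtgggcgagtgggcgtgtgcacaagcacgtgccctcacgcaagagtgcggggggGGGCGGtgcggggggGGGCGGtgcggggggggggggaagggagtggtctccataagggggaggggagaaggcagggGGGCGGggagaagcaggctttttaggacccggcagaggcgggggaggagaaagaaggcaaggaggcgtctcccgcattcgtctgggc
Igfbp3 (chr11:7213874-7214173, − strand): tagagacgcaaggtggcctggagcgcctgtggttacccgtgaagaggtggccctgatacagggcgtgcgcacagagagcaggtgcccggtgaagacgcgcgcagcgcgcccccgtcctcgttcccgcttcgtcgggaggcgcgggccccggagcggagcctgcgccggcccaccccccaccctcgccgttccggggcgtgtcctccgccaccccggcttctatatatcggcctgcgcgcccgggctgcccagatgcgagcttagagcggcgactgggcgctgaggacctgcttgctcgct
Igfbp5 (chr1:72874816-72875115, − strand): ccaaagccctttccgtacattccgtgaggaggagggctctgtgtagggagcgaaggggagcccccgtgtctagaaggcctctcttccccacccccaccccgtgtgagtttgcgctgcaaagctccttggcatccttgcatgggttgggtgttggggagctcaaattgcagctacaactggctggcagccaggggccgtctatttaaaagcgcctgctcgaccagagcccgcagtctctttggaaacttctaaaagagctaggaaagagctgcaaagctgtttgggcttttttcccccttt

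Igf1 held 1 AGGTCA and, on the other strand, 1 CCAAT (read as ATTGG), and Igfbp2 held 3 GGGCGG. The windows of Igfbp3 and Igfbp5 held none of the motifs, and none of the windows shown held TATAAA. Of 32851 mouse windows of this length, 16.3% held AGGTCA, 37.4% CCAAT, 35.7% GGGCGG and 13.6% TATAAA. The GC content was 52.3% for Igf1, 67.0% for Igfbp2, 71.7% for Igfbp3 and 56.3% for Igfbp5, against a median of 52.7% over all windows. Igfbp2 and Igfbp5 are next to each other among the protein-coding genes of chromosome 1 and lie on opposite strands.

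Igfbp2 encodes a binding protein that glial cells of the developing brain make and that prefers IGF2. In the VB its signal was 10.41, 10.72 and 10.92 in embBE mice at P4 and 9.73, 10.06 and 10.14 at P0. In the dLGN of embBE mice it was 9.35, 8.77 and 8.81 at P4, and 7.54, 6.87, 7.94 and 7.56 at P0. No VB array of embBE mice overlapped with the dLGN arrays of the same age, as was so for 55.8% of all genes at P4 and 25.9% at P0.

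In controls the VB had 10.70, 10.18 and 10.72 at P4 and 9.40, 10.04 and 10.53 at P0. The control dLGN had 9.62, 9.19 and 9.06 at P4 and 8.65 and 8.31 at P0, again without overlap between nuclei at the same age. That was so in controls for 12.7% of all genes at P4 and 22.9% at P0. The VB minus dLGN difference was 1.71 in embBE mice at P4 (SE 0.27, adjusted p = 0.000563), 1.24 in controls at P4 (SE 0.27, adjusted p = 0.0108), 2.50 in embBE mice at P0 (SE 0.25, adjusted p = 4.25e-06) and 1.51 in controls at P0 (SE 0.30, adjusted p = 0.0104). The calls in controls were lost at P4 without dLGN array 36_3 or VB array 24_2 (1.12 to 1.42 over all arrays left out) and at P0 without array 39_5 of either nucleus (1.25 to 1.81).

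Igfbp5 encodes a binding protein that attaches to extracellular matrix. Its signal was 12.34, 11.59 and 11.90 in the embBE VB at P4, against 9.82, 9.96 and 9.57 in the embBE dLGN, and 12.04, 12.14 and 11.91 in the control VB, against 11.02, 9.97 and 9.55 in the control dLGN. The groups did not overlap. Igfbp5 was higher in the VB by 2.16 in embBE mice at P4 (SE 0.35, 4.47-fold, adjusted p = 0.000572), by 1.85 in controls at P4 (SE 0.35, 3.59-fold, adjusted p = 0.00299) and by 1.31 in embBE mice at P0 (SE 0.32, 2.48-fold, adjusted p = 0.0179). In controls at P0 the difference was 0.86 (SE 0.39) and did not pass (adjusted p = 0.48). The second probe set did not share this order. Its VB minus dLGN differences were −0.26 and 0.05 at P4 and −0.27 and 0.32 at P0, in embBE and control mice in turn, and none passed. The call in embBE mice at P0 was lost without dLGN array 39_2 or 39_3 or any of the 3 VB arrays (1.07 to 1.56 over all arrays left out), and that in controls at P4 without VB array 24_2 (1.54 to 2.27).

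Igfbp3, the main carrier of IGFs in blood serum, had signals of 8.82, 8.97 and 9.00 in the embBE VB at P4, against 7.45, 6.65 and 7.10 in the embBE dLGN. At P0 it had 7.79, 8.03 and 8.28 in the embBE VB, against 6.80, 5.25, 7.17 and 5.67 in the embBE dLGN. The nuclei did not overlap at either age. The difference was 1.86 at P4 (SE 0.43, adjusted p = 0.0123) and 1.81 at P0 (SE 0.40, adjusted p = 0.00994). In controls it was 1.40 at P4 (SE 0.43, adjusted p = 0.095) and 0.75 at P0 (SE 0.48, adjusted p = 0.78), where array 35_1 of the VB, at 6.60, lay below both dLGN arrays (6.75 and 6.70). That array has the wide actin gap given above. The call at P4 was lost without dLGN array 36_2 (1.66) and that at P0 without VB array 39_4 (1.68). The second probe set of Igfbp3 passed in embBE mice at P4 (1.26) and not at P0 (0.70).

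Igfbpl1 ran the other way and was lower in the VB. Its protein resembles the N-terminal part of the binding proteins. Its signal was 6.11, 6.09 and 6.19 in the embBE VB at P4, against 6.89, 7.13 and 7.02 in the embBE dLGN, without overlap. It was lower in the VB with a difference of −0.89 in embBE mice at P4 (SE 0.14, adjusted p = 0.000533), −0.72 in embBE mice at P0 (SE 0.13, adjusted p = 0.00227) and −0.80 in controls at P0 (SE 0.16, adjusted p = 0.0087), and the difference was −0.51 in controls at P4 (SE 0.14, adjusted p = 0.051). The call in controls at P0 was lost without either dLGN array or VB array 39_5 (−0.90 to −0.68). Both of its probe sets passed in embBE mice at both ages. It was highest in the control dLGN at P0 (7.62 and 7.49), above all other arrays.

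In all, 4 of the 10 genes passed as higher and 1 as lower in the VB of embBE mice at P4, where 8.43% of all genes passed in either direction, and likewise 4 and 1 at P0, where 7.48% of all genes passed. In controls 3 passed as higher and 0 as lower at P4, against 3.22% of all genes, and 2 as higher and 1 as lower at P0, against 1.56%. The median difference of the 10 genes was 0.08 in embBE mice at P4, 0.30 in controls at P4, 0.30 in embBE mice at P0 and 0.16 in controls at P0, with medians over all genes of −0.09, −0.03, −0.06 and 0.03. The nuclei did not overlap for 7 members in embBE mice and 6 in controls at P4, against 55.8% and 12.7% of all genes. At P0 they did not overlap for 5 and 6 members, against 25.9% and 22.9% of all genes. Igf2, Igf1r, Igf2r, Igfbp4 and Igfbp7 passed in none of the 4 comparisons. Their differences lay between −0.57, for Igf2r in controls at P0, and 0.40, for Igfbp7 in embBE mice at P0.

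**Figure D2:**
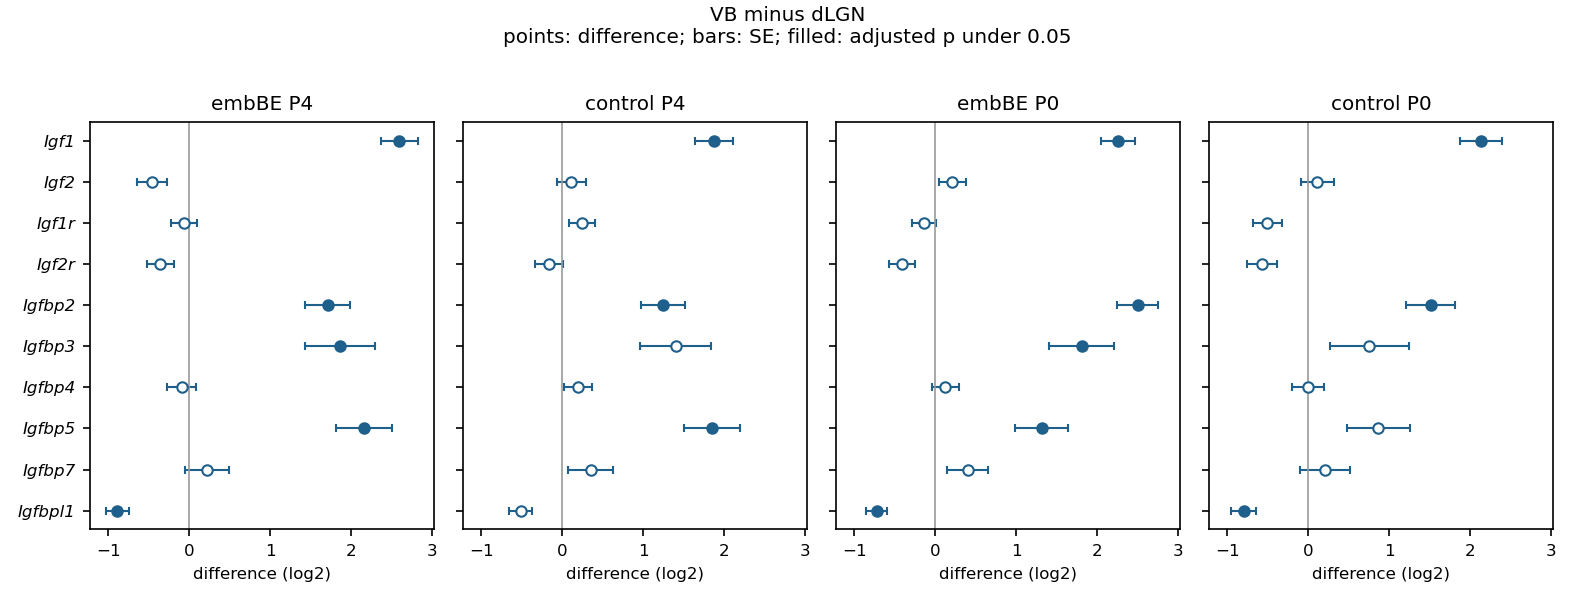
VB minus dLGN difference in log2 signal (horizontal axis) for each of the 10 genes (vertical axis), in embBE and control mice at P4 and at P0. Points are limma estimates, bars are SE and filled points have an adjusted p under 0.05. Igf1 and Igfbp2 are filled to the right of 0 in all 4 panels, from 1.24 to 2.59.

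The actin gap moved with nucleus, and its relation to the signals differed between these genes. Over the 12 VB arrays Pearson's r with the gap was −0.84 for Igfbp3, −0.67 for Igfbp2, −0.44 for Igf1, −0.34 for Igfbp5 and 0.43 for Igfbpl1. Over the 12 dLGN arrays it was −0.46, −0.39, −0.21, −0.65 and 0.27 for the same genes. These values are descriptions over arrays that share groups.

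With the gap of each array as a covariate, an alternative chosen after seeing the data, the VB minus dLGN difference of Igf1 was 2.50 in embBE mice at P4, 1.83 in controls at P4, 2.19 in embBE mice at P0 and 2.11 in controls at P0, and all passed. Those of Igfbp2 were 1.08, 0.93, 2.02 and 1.33, and all passed. Igfbp3 was no longer past the threshold, with 0.91 in embBE mice at P4 (adjusted p = 0.43) and 1.09 at P0 (adjusted p = 0.17). Igfbp5 passed in embBE mice (1.65) and controls (1.59) at P4 and not in embBE mice at P0 (0.92, adjusted p = 0.22). Igfbpl1 kept its 3 calls. In embBE mice the gaps of the nuclei did not overlap. At P4 they ran from 1.98 to 2.05 in the VB, against 3.33 to 3.94 in the dLGN. At P0 they ran from 2.25 to 2.55, against 3.07 to 4.27. In embBE mice this fit thus had no arrays of both nuclei at the same gap and cannot separate the gap from the nucleus.

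**Figure D3:**
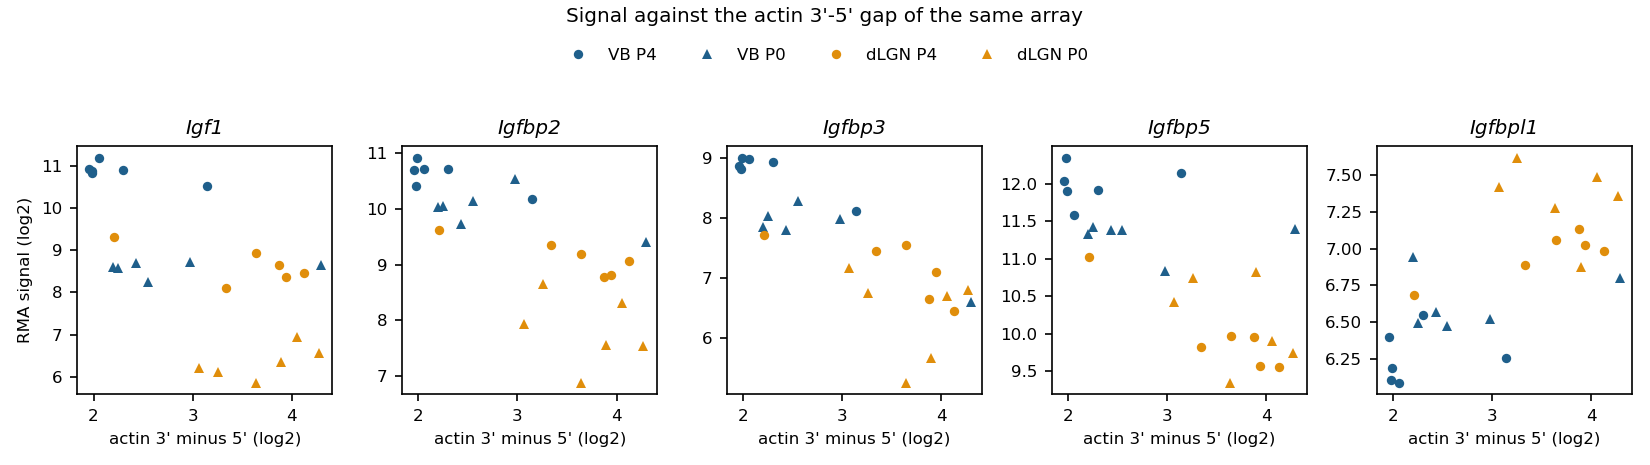
RMA log2 signal of 5 genes (vertical axes, each on its own scale) against the actin gap of the same array in log2 units, 3′ minus 5′ (horizontal axis). Blue is VB, orange is dLGN, circles are P4 and triangles P0, with embBE and control arrays together. Igfbp3 lies lower at wider gaps within the VB (r of −0.84). Igf1 lies higher in the VB than in the dLGN at each age, and the gaps of the nuclei overlap in controls but not in embBE mice.

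Cell type markers differed between the nuclei as well, and their part in these results was not tested. Of 9 markers of astrocytes and radial glia, 4 were higher and 1 was lower in the VB of embBE mice at P0 (median 0.62, all genes −0.06), with Fabp7, the lipid-binding protein gene of radial glia, at 0.95 (SE 0.22) and the water channel gene Aqp4 at −2.82 (SE 0.35). In embBE mice at P4 1 was higher and 1 lower (median 0.41), and in controls 0 passed at P4 (median 0.22) and 1, Aqp4, was lower at P0 (median −0.04). The mean signal of the 9 markers averaged 10.40 in the embBE VB at P4, against 10.14 in the embBE dLGN, and ran from 9.38 to 9.88 in the control VB at P0, against 9.70 to 9.78 in the control dLGN. Of 6 markers of immature neurons, 2 were lower in the VB of embBE mice at each age and 1 in controls at each age (medians of −0.50 and −0.37 at P4 and −0.34 and −0.25 at P0, embBE mice first). Of 9 markers of the oligodendrocyte lineage, the myelin gene Mbp was higher in the VB of embBE mice at P4 (1.03), of controls at P4 (1.57) and of controls at P0 (1.23), Mag was lower in embBE mice (−0.53) and controls (−0.39) at P4, and Olig1 (1.37) and Pdgfra (0.77) were higher in embBE mice at P0. The median of this list was −0.15 in embBE mice and 0.19 in controls at P4, and −0.03 in embBE mice and 0.31 in controls at P0. Of 5 markers of dividing cells, Ube2c and Cdk1 were higher in the VB of embBE mice at P0 (1.20 and 0.98, median of the list 0.52), and 0 passed in the other 3 comparisons (medians of 0.20, −0.05 and −0.09 in embBE mice at P4, controls at P4 and controls at P0). Pdgfrb alone passed among 9 mural cell markers, and it was lower in embBE mice at P0 (−0.92). Among 8 measured choroid plexus markers Sostdc1 alone passed, lower in all 4 comparisons (−0.99 to −0.85). Crabp2 alone passed among the 10 genes listed for meningeal fibroblasts, higher in 3 of the 4 (2.46 to 3.51). The study used Crabp2 as a marker of the auditory thalamus. Among 6 habenula markers Chrna3 alone passed, lower in controls at P4 (−0.60), and 0 of 11 GABAergic markers passed (medians of −0.46 to −0.13). Of 10 microglial markers P2ry12 alone passed, in embBE mice at P4 (1.09). Of 9 endothelial markers 0 passed in any of these 4 comparisons, with medians from 0.12 to 0.18.

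Besides Igf1, few members passed between ages. Igfbp2 rose in the embBE dLGN by 1.5 (SE 0.24, 2.83-fold, adjusted p = 0.0133), and its 3 arrays at P4 lay above its 4 at P0. The difference was 0.81 in the control dLGN (SE 0.29, adjusted p = 0.34), 0.71 in the embBE VB (SE 0.25, adjusted p = 0.17) and 0.54 in the control VB (SE 0.25, adjusted p = 0.26). The call in the embBE dLGN was lost when any 1 of the 3 P4 arrays was left out, with differences of up to 1.65 over all arrays left out. Igfbp5 rose in the control VB by 0.84 (SE 0.18, 1.79-fold, adjusted p = 0.0259), and the difference in the embBE VB was 0.55 (SE 0.18, adjusted p = 0.14). The call in controls was lost without array 39_5, 24_2 or 40_1 (0.66 to 0.95). The second probe set of Igfbp5 went the other way, with −0.31 in the control VB and −0.11 in the embBE VB. With the probe sets averaged, the difference in the control VB was 0.27 and did not pass. The call there was also lost with only the 2 groups compared and with all 24 arrays in the fit.

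Igf2 is the IGF ligand best known for fetal growth and is strongly made by meninges and choroid plexus in rodents. It fell in the embBE VB by 0.53 log2 units at P4 (SE 0.13, adjusted p = 0.0414), with 7.78, 7.64 and 7.47 at P4 and 8.03, 8.33 and 8.10 at P0, without overlap. The ages did not overlap there for 38.5% of all genes. In the control VB the difference was −0.45 (SE 0.13, adjusted p = 0.071), with 7.59, 7.74 and 7.76 at P4 and 8.04, 8.36 and 8.06 at P0. In the dLGN it was 0.14 in embBE mice (SE 0.20) and −0.46 in controls (SE 0.24). The fall in the embBE VB did not pass in any of the 6 fits without 1 array (−0.60 to −0.44) and passed in 6 of 10 alternatives. The second probe set of Igf2 gave −0.05 there.

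Both receptor genes fell in the control dLGN and had differences below 0 in the other 3 comparisons of age. Igf1r had 8.37, 8.19 and 8.28 in the control dLGN at P4, against 9.28 and 9.33 at P0, and fell by 1.02 (SE 0.18, adjusted p = 0.0328). In the embBE dLGN it had 8.48, 8.48 and 8.77 at P4, against 9.31, 8.90, 9.55 and 9.16 at P0, a difference of −0.65 (SE 0.15, adjusted p = 0.061). Neither pair of ages overlapped, as was so for 24.3% of all genes in the control dLGN and 12.1% in the embBE dLGN. The differences in the VB were −0.58 in embBE mice (SE 0.15, adjusted p = 0.06) and −0.27 in controls (SE 0.15, adjusted p = 0.38), and the change in controls did not differ between the nuclei past the threshold (0.75, SE 0.24, adjusted p = 0.61). Igf1r passed in the embBE dLGN and the embBE VB with all 24 arrays in the fit and with the actin gap as a covariate. In the embBE dLGN it also passed with cyclic loess normalization, with dim genes left out and without P0 array 39_3. In the embBE VB it also passed with only the 2 groups compared.

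Igf2r had 7.81, 7.48 and 7.98 in the control dLGN at P4, against 8.71 and 8.85 at P0, and fell by 1.02 (SE 0.19, adjusted p = 0.0366). Its differences in the other 3 comparisons of age were −0.48 in the embBE dLGN, −0.43 in the embBE VB and −0.61 in the control VB, and did not pass (lowest adjusted p = 0.061). In the control VB Igf2r passed with all 24 arrays in the fit and with arrays centred on their median. It also passed there with the first label number as a random block and without array 39_5 or 36_3. In the embBE VB it passed with only the 2 groups compared. The calls in the control dLGN rest on 2 arrays at P0. That of Igf1r was lost in all 5 fits without 1 array (−1.07 to −0.97), and that of Igf2r in all but the one without array 40_1 (−1.13 to −0.89). Of the 5 probe sets of Igf1r, 1 besides the main one gave −1.35 in the control dLGN and 3 others gave −0.50 to 0.07, none past the threshold, and the second probe set of Igf2r gave −0.26.

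In all, 1 member rose and 1 fell in the embBE VB, where 3.42% of all genes passed between the ages, and 2 rose and 0 fell in the control VB, against 3.78%. In the embBE dLGN 2 rose and 0 fell, against 1.02% of all genes, and in the control dLGN 1 rose and 2 fell, against 0.561%. The members' medians were −0.22 and −0.07 in the embBE and control VB and −0.02 and −0.24 in the embBE and control dLGN, with medians over all genes of −0.04, −0.03, 0.01 and 0.04. The ages did not overlap for 8 members in the embBE VB and 5 in the control VB, against 38.5% and 16.3% of all genes. In the dLGN they did not overlap for 4 members in embBE mice and 5 in controls, against 12.1% and 24.3%. Igfbp3, Igfbp4, Igfbp7 and Igfbpl1 passed in none of the 4 comparisons on their main probe sets. Igfbp3 had 8.82, 8.97 and 9.00 in the embBE VB at P4 and 7.79, 8.03 and 8.28 at P0, a difference of 0.90 (SE 0.31, adjusted p = 0.16). In the control VB it had 8.86, 8.12 and 8.93 at P4 and 6.60, 7.85 and 7.97 at P0, a difference of 1.16 (SE 0.31, adjusted p = 0.061), and the ages overlapped in neither. In the control VB its second probe set passed (0.68, adjusted p = 0.025 over all probe sets), and so did the gene with its probe sets averaged (0.92), with the actin gap as a covariate (0.72), with the first label number as a random block (1.21) and without array 35_2, 39_5 or 36_3 (1.35 to 1.42). It did not pass without array 35_1, which has the wide actin gap (0.72), without 24_2 (1.05) or 40_1 (1.01), or under the other settings tried (1.12 to 1.18). In the embBE VB it passed with the actin gap as a covariate and with only the 2 groups compared in the fit. In the dLGN it was 0.84 in embBE mice (SE 0.44) and 0.51 in controls (SE 0.52).

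Igfbpl1 had differences of −0.39 in the embBE VB, −0.35 in the control VB, −0.22 in the embBE dLGN and −0.64 in the control dLGN (lowest adjusted p = 0.11), and its second probe set passed in the embBE dLGN (−0.64, adjusted p = 0.0196 over all probe sets). The main probe set passed in the embBE VB with the actin gap as a covariate and with only the 2 groups compared, and in the control dLGN with all 24 arrays in the fit. Igfbp4, which binds IGFs and blocks them, differed by −0.27 to 0.03. Igfbp7, a matrix protein gene of blood vessels, differed by −0.26 to −0.07.

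**Figure D4:**
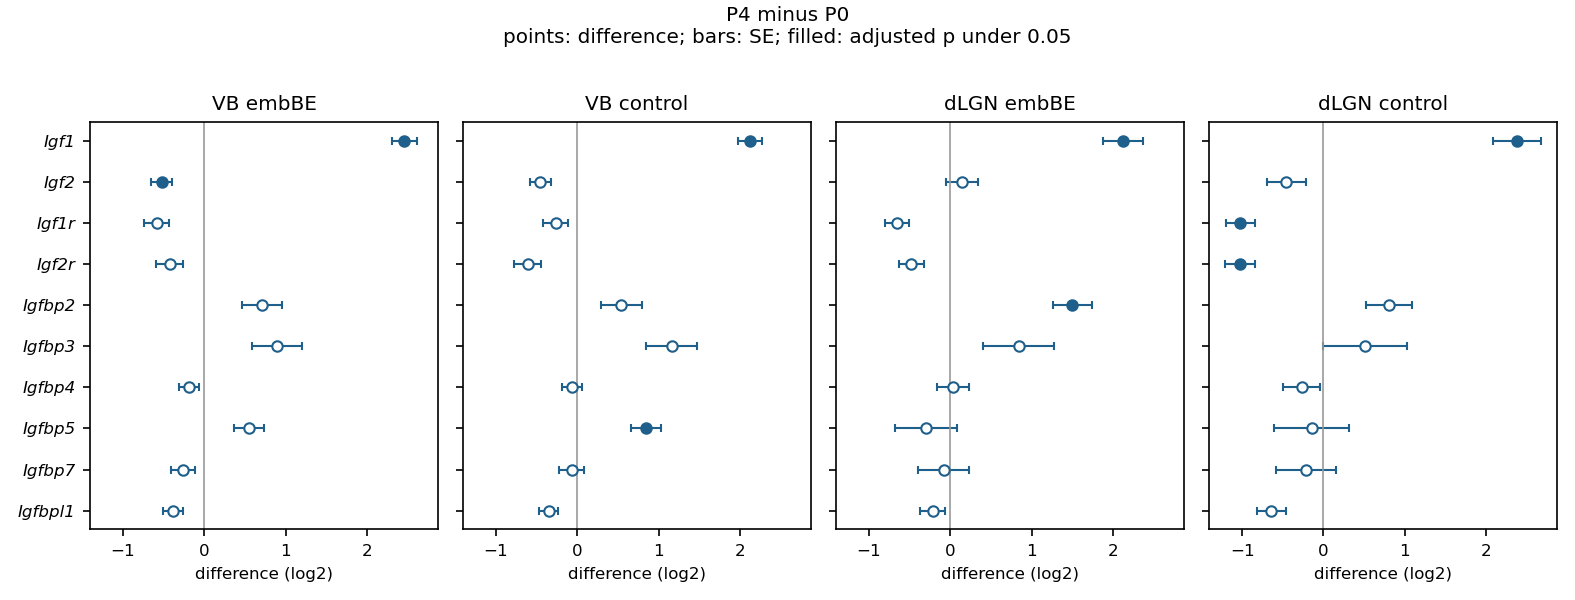
P4 minus P0 difference in log2 signal (horizontal axis) for each of the 10 genes (vertical axis), in the VB and the dLGN of embBE and control mice. Points are limma estimates, bars are SE and filled points have an adjusted p under 0.05. Igf1 is filled in all 4 panels at 2.12 to 2.46, and Igf1r and Igf2r lie left of 0 in each panel.

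Some glial markers rose over the same days. Of the 9 markers of astrocytes and radial glia, 3 rose in the embBE VB (Aqp4, the gap junction gene Gja1 and the glutamate transporter gene Slc1a2, median of the list 0.55) and 3 in the control VB (median 0.43), and Gja1 alone rose in the embBE (1.81, SE 0.17, median of the list 0.71) and control dLGN (1.61, SE 0.21, median 0.29). The mean marker signal in the VB ran from 10.38 to 10.42 in embBE mice at P4, against 9.47 to 9.60 at P0, and in the control VB from 10.27 to 10.51 at P4, against 9.38 to 9.88 at P0. Of the 10 microglial markers measured, 1 rose in the embBE VB, P2ry12 (1.36, SE 0.15), and 2 rose in the control VB (P2ry12, 0.65, and Tmem119, 0.54), while 0 passed in the dLGN (medians of 0.15 in embBE mice and 0.35 in controls). Microglia are a known source of Igf1 in the postnatal brain, as some neurons are. The part of these cells in the rise of Igf1 was not tested.

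The 13 other receptor and adaptor genes of the pathway held Insr, the insulin receptor gene, whose protein also binds IGF2. Insr was lower at P4 in all 4 comparisons of age and fell by 0.76 in the embBE VB (SE 0.15, adjusted p = 0.0159), 0.62 in the control VB (SE 0.15, adjusted p = 0.0376), 0.76 in the embBE dLGN (SE 0.13, adjusted p = 0.0215) and 0.92 in the control dLGN (SE 0.16, adjusted p = 0.0313). The only other gene of this list that passed between the ages was Socs3, a feedback inhibitor of cytokine signals, which fell in the control VB (−1.15, SE 0.27, adjusted p = 0.0369). Between nuclei, Irs1, which encodes an adaptor that both receptors phosphorylate, was higher in the VB by 1.28 in embBE mice at P4 (SE 0.23, adjusted p = 0.00156), 1.10 in controls at P4 (SE 0.23, adjusted p = 0.00751) and 1.08 in embBE mice at P0 (SE 0.21, adjusted p = 0.00449). Insr was lower in the VB of embBE mice at P4 (−0.64) and at P0 (−0.63), and Grb14 was higher at P0 (0.73).

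Of 12 other binding proteins, carriers and proteases, Pappa, the gene of pregnancy-associated plasma protein A, which cuts binding proteins 4 and 5, was higher in the VB than in the dLGN by 1.22 in embBE mice at P4 (SE 0.15, adjusted p = 3.55e-05), 0.75 in controls at P4 (SE 0.15, adjusted p = 0.00506) and 0.74 in controls at P0 (SE 0.17, adjusted p = 0.0237). Pappa also rose with age in the embBE VB (0.86, SE 0.15, adjusted p = 0.0101) and the control VB (0.62, SE 0.15, adjusted p = 0.0446). The protease genes Htra1 (1.15) and Adamts1 (0.99) were higher and Mmp2 (−0.55) was lower in the VB of embBE mice at P4. In controls at P4 Adamts1 (1.0) was higher, and in embBE mice at P0 it was higher by 0.74. Htra1 rose in the embBE VB between the ages (1.56, SE 0.33), and Mmp2 fell in the embBE (−0.69) and control VB (−0.82). The medians of this list stayed between −0.24 and 0.16 in the comparisons of nuclei and ages.

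Of the 19 measured genes of the PI3K, AKT, mTOR and FOXO pathway, 1 was higher (Rheb, 0.84) and 2 were lower (Foxo3, −1.01, and Foxo1, −0.57) in the VB of embBE mice at P0, 1 fell between the ages in the embBE VB (Pik3r1, −0.81), and 0 passed in the other comparisons of nuclei and ages. The medians of the list there lay between −0.25 and 0.06. The genes Igf2bp1 (−0.75, SE 0.20) and Igf2bp3 (−0.81, SE 0.22), whose proteins bind Igf2 mRNA, were lower in the VB of embBE mice at P4, and these 2 were the measured ones of 3. Of 14 measured imprinted genes, the class to which Igf2 and Igf2r belong, Slc38a4 rose between the ages in the embBE (1.29, SE 0.17) and control VB (1.17, SE 0.17), Peg3 rose in the embBE VB (0.54) and Meg3 fell in the control VB (−1.21). Dlk1 was lower in the VB in 3 of the 4 comparisons of nuclei, with differences of −0.85 and −0.87 in embBE and control mice at P4 and −0.88 in embBE mice at P0. Slc38a4 was also higher in the VB of embBE mice at P4 (0.74). Between embBE and control mice 0 genes of these 5 lists passed after adjustment, and Slc38a4 alone met a fold of at least 1.5 with an unadjusted p under 0.05, in the dLGN at P4 (−0.69, SE 0.25).

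Between embBE and control mice 0 of the 10 genes had an adjusted p under 0.05 in any of the 4 comparisons with limma, and at an unadjusted p under 0.05 there were 1 in the VB at P4, 0 in the VB at P0, 2 in the dLGN at P4 and 1 in the dLGN at P0. The shares of all genes with such an unadjusted p were 3.98%, 6.71%, 1.30% and 2.39% in the same order. The study itself called genes at 1.5-fold or more with an unadjusted p under 0.05. By that threshold 0 members were called in the VB at P4, where 0.159% of all genes were called, 0 in the VB at P0 (0.731% of all genes), 0 in the dLGN at P4 (0.198%) and 1 in the dLGN at P0 (0.445%). The methods' t-test gave the same counts of members at both thresholds. The members' medians were 0.01 and 0.07 in the VB at P4 and P0 and 0.13 and −0.17 in the dLGN at P4 and P0, with medians over all genes of −0.02, −0.03, 0.01 and 0.03.

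The member called was Igfbp2 in the dLGN at P0. It had 7.54, 6.87, 7.94 and 7.56 on the embBE arrays, against 8.65 and 8.31 on the control arrays, a difference of −1.01 (SE 0.27, 2.01-fold, adjusted p = 0.85). The groups did not overlap, as was so for 9.98% of all genes and, of the members, also for Igfbpl1 (−0.32, SE 0.17). The difference stayed past the study's threshold in all 11 alternatives (−1.01 to −0.90) and in all 6 fits without 1 array (−1.18 to −0.80). At P4 the dLGN had 9.35, 8.77 and 8.81 on embBE arrays, against 9.62, 9.19 and 9.06 on control arrays, which overlapped (−0.31, SE 0.26). The VB had differences of 0.15 at P4 (SE 0.25) and −0.02 at P0 (SE 0.25). The effect at P0 in the VB minus that in the dLGN was 0.99 (SE 0.40) and did not pass (adjusted p = 0.55), and neither did the difference between its P4 and P0 effects in the dLGN (0.69, SE 0.37, adjusted p = 1).

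At the study's threshold 2 of 9 markers of astrocytes and radial glia were called lower in the embBE dLGN at P0, Fabp7 (−0.76, SE 0.27) and Aldh1l1 (−0.75, SE 0.30), with adjusted p of 0.85 for both, 1 of 9 had a difference above 0, and the median of the list was −0.27. Their mean signal ran from 9.09 to 9.53 on the embBE arrays, against 9.70 to 9.78 on the control arrays. Their part in the difference of Igfbp2 was not tested. The actin gap overlapped between these groups, with 3.07 to 4.27 on the embBE arrays and 3.25 to 4.05 on the control arrays, and with the gap as a covariate the difference of Igfbp2 was −0.98.

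In the dLGN at P4 Igf2r had 8.16, 8.12 and 8.37 on embBE arrays, against 7.81, 7.48 and 7.98 on control arrays (0.46, SE 0.17, 1.37-fold). Igf2 had 7.98, 8.32 and 7.96 on embBE arrays, against 7.95, 7.29 and 7.52 on control arrays (0.50, SE 0.21, 1.42-fold). Neither reached a fold of 1.5. These 2 genes and Igf1r (0.30, SE 0.16) were the members whose groups did not overlap, as was so for 4.85% of all genes, and none passed after adjustment (adjusted p = 1). Of the 10 markers of meningeal fibroblasts, 3 were called higher in the same embBE arrays at the study's threshold, Col3a1 (1.56, SE 0.49), Dcn (1.07, SE 0.48) and Col1a2 (1.02, SE 0.38), the median of the list was 0.32, and their mean signal ran from 5.38 to 6.51 on embBE arrays, against 5.25 to 5.49 on control arrays. Their part in the signal of Igf2 was not tested. Without control array 24_2 Igf2 passed the study's threshold (0.68).

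Igf1 had a difference of −0.54 in the dLGN at P4 (SE 0.27), with 8.11, 8.65 and 8.36 on embBE arrays, against 9.32, 8.94 and 8.47 on control arrays, which overlapped. All 4 probe sets gave differences below 0 there, from −0.77 to −0.29, and none passed. Without embBE array 36_2 (−0.68) or control array 40_1 (−0.76) the gene passed the study's threshold. The difference was 0.18 in the VB at P4 (SE 0.15), −0.15 in the VB at P0 (SE 0.15) and −0.28 in the dLGN at P0 (SE 0.28). The embBE effect on Igf1 at P4 in the VB minus that in the dLGN was 0.72 (SE 0.33) and did not pass (adjusted p = 0.98).

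In the VB at P4 Igfbpl1 had 6.11, 6.09 and 6.19 on embBE arrays, against 6.40, 6.25 and 6.55 on control arrays, a difference of −0.27 (SE 0.12, adjusted p = 0.75). It was the only member whose groups did not overlap there, as was so for 12.2% of all genes. In the VB at P0 Igfbp3 had the largest difference of the members, 0.56 (SE 0.31), with 7.79, 8.03 and 8.28 on embBE arrays, against 6.60, 7.85 and 7.97 on control arrays. The lowest of these was array 35_1. Without control array 35_2 (0.75) or 39_5 (0.81) Igfbp3 passed the study's threshold, and without 35_1 it did not.

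**Figure D5:**
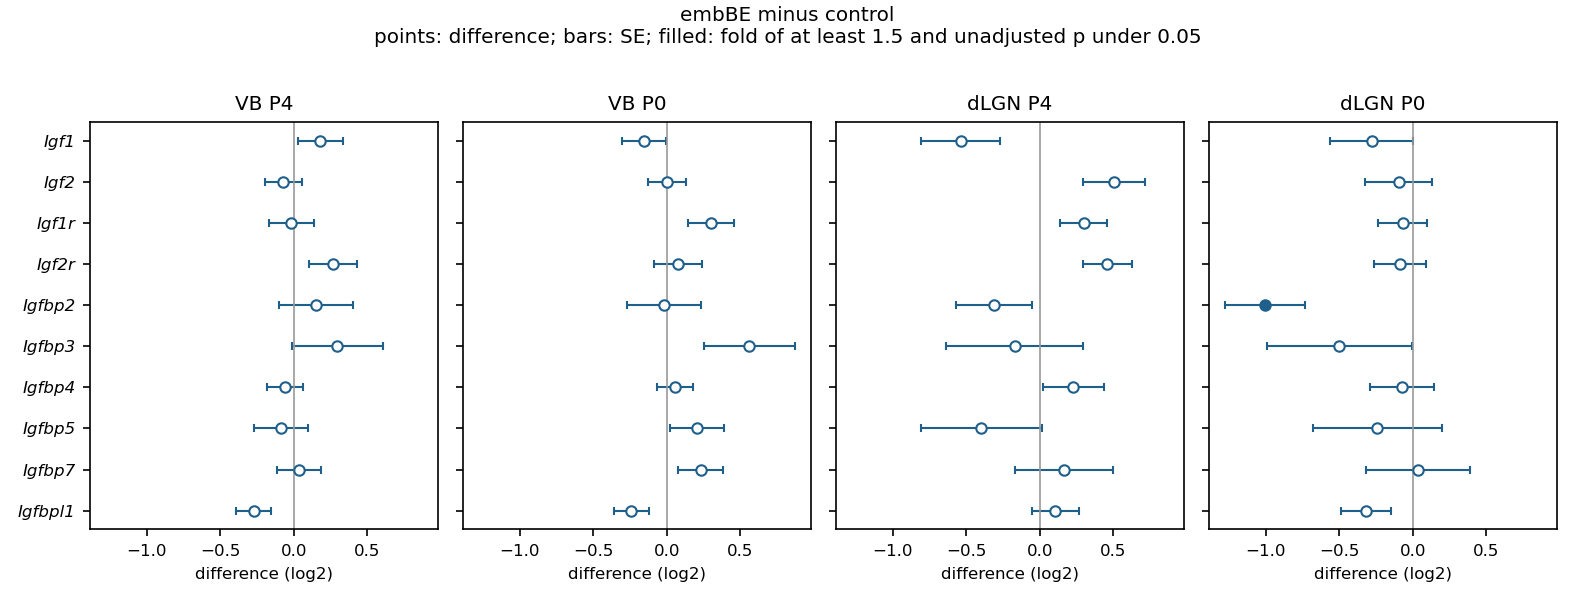
embBE minus control difference in log2 signal (horizontal axis) for each of the 10 genes (vertical axis), in the VB and the dLGN at P4 and P0. Points are limma estimates, bars are SE and the filled point met the study's threshold, a fold of at least 1.5 and an unadjusted p under 0.05. Igfbp2 in the dLGN at P0 (−1.01) is the only filled point.

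The members resembled each other to different degrees over the 24 arrays, which share nucleus and age, so that the following Pearson r are descriptions. Igf1 had r = 0.89 with Igfbp2, 0.85 with Igfbp3 and 0.71 with Igfbp5, and −0.86 with Igfbpl1 and −0.83 with Igf2r. The highest r between members was 0.91, for Igfbp2 and Igfbp3. Igf1r and Igf2r had r = 0.85 with each other. Among 12095 other genes with a mean signal of at least 6, those most like Igf1 were Pvt1 (0.964), Tuba8 (0.958) and the amino acid transporter gene Slc7a10 (0.957), and those most like Igfbp2 were Acaa2 (0.958), the serotonin transporter gene Slc6a4 (0.952) and Txn1 (0.950). Igfbp3 was most like Arpp21 (0.981), Cthrc1 (0.972) and the GABA receptor subunit gene Gabra4 (0.97), and Igfbp5 most like Pde1c (0.941), Tpd52 (0.937) and Vstm2a (0.919). Igfbpl1 was most like Elk3 (0.912), Fgd5 (0.903) and Dkk4 (0.894).

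The genes most like Igf1r were Zmiz1 (0.951), Fasn (0.936) and Akap9 (0.923), and those most like Igf2r were Acvr2b (0.941), Ankrd11 (0.923) and Baz2b (0.917). Igfbp7 was most like Cldn5 (0.878), which encodes a tight junction protein of brain endothelium, the basement membrane collagen gene Col4a1 (0.873) and the iron exporter gene Slc40a1 (0.831). Igf2 and Igfbp4 had no close match. The genes most like Igf2 were Apcdd1 (0.721), Angpt2 (0.675) and Gnl2 (0.667), and those most like Igfbp4 were Epb41l1 (0.783), Dclre1a (0.763) and Hp1bp3 (0.759).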

How the data were processed

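RNA of microdissected VB and dLGN, amplified in 2 rounds, was hybridised to Affymetrix mouse whole-genome arrays by the authors, and the deposited values are log2 signals normalized by RMA (its version is not given in the sources used). Of 45101 probe sets, 64 are array controls, 34945 have 1 gene symbol, 932 several and 9160 none listed. Symbols were updated through Entrez numbers for 34754. Each of the 18193 genes was read on its brightest probe set by mean signal.

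Comparisons within a nucleus were fitted on its 12 arrays, and those between nuclei on all 24 with the label pair as a random block (duplicateCorrelation), in limma 3.58.1 (R 4.3.3) with Benjamini-Hochberg adjustment over all genes, and a gene passed at an adjusted p under 0.05. The study's threshold, a fold of 1.5 and an unadjusted p under 0.05, and its t-test were used as well. Tables and figures were made with Python 3.11.15, pandas 2.3.3 and matplotlib 3.10.9. The sizes of the fitted differences were checked on simulated arrays with independent noise and known changes in the control VB at P4. The simulated arrays held no pairing and no actin gap.

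The text names all 10 members, in each list up to 4 genes past the threshold with the largest difference, and the 3 genes most like each member. The members and lists were chosen with earlier results of these data known. Alternatives were the probe set rule, normalization, dim genes, variance model, arrays in the fit, pairing, the actin gap and leaving out each array. The number of arrays limits the precision, and 3 arrays against 3 cannot give a permutation p below 0.1. Promoter windows are from RefSeq.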

Additional observations from a re-analysis of the deposited data

How the results depend on the processing

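The 26 differences of single genes that were called include that of Igfbp2 between the embBE and control dLGN at P0. That difference met only the study's threshold, without adjustment, and was judged by it. Over the 26, the alternatives and the fits without 1 array kept the direction and the call in 333 cases. They kept the direction alone in 53 and reversed 0. Igf1 passed between nuclei in all of them, and between ages in all but the control dLGN, where the fit of only the 2 groups compared and the one without control array 35_1 lost it. The count of members that passed between ages in the embBE VB (2) became 1 with a gene's probe sets averaged, 1 with every probe set fitted, 1 with a trended and robust variance, 5 with the actin gap as a covariate and 8 with only the 2 groups compared. In the control VB (2) it became 4 with arrays centred on their median, 4 with the actin gap, 1 with only the 2 groups and 4 with the first label number as a random replicate block. The count there stayed at 2 with all 24 arrays in the fit, where Igf2r passed in place of Igfbp5. With the probe sets averaged it also stayed at 2, with Igfbp3 in place of Igfbp5. In the embBE VB all 24 arrays kept it at 2, with Igf1r in place of Igf2. In the control dLGN (3) it became 1 with the probe sets averaged and 0 with only the 2 groups. Between nuclei in embBE mice at P0 (5) it became 3 with the actin gap. At the study's threshold the count for embBE against control in the dLGN at P4 (0) became 1 with the actin gap (Igf2, 0.59). The causes were not tested.

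Without 1 array, the counts between ages ran from 1 to 1 in the embBE VB, 1 to 4 in the control VB, 1 to 3 in the embBE dLGN and 0 to 2 in the control dLGN. Those between nuclei ran from 4 to 5 in embBE mice at P4, 1 to 4 in controls at P4, 3 to 5 in embBE mice at P0 and 1 to 3 in controls at P0. At the study's threshold those of embBE against control ran from 0 to 0 in the VB at P4, 0 to 1 in the VB at P0, 0 to 1 in the dLGN at P4 and 1 to 1 in the dLGN at P0, and after adjustment from 0 to 0 in each.

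The data did not show that the label numbers pair the arrays, and so few pairs cannot exclude it. Deviations from the group means of arrays with the same first number at P4 had r of −0.20 to 0.76 (3 of 6 pairs over 0.1), and those of the same label pair in both nuclei had r of −0.55 to 0.72 (3 of 11 over 0.1, block correlation −0.02). With no replicate block the counts between nuclei were 5 in embBE mice and 4 in controls at P4 and 5 in embBE mice and 3 in controls at P0. Few arrays a group, and 2 in the control dLGN at P0, limit what can pass.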
